A study of Sus scrofa with 15 samples.

Results

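The mRNA levels of 10 genes of insulin signalling were described in the backfat of Iberian pigs fed 3 diets. The genes were INSR, IRS1, IRS2, PIK3R1, AKT2, SLC2A4, GRB10, GRB14, FOXO1 and PDE3B, chosen by symbol, and all 10 were found among the 30477 genes of the count tables and among the 14918 genes with enough counts to be tested. The samples were subcutaneous fat biopsies of 5 pigs per diet, out of 44 pigs in the whole trial, read as 1 RNA-seq library per pig. All pigs were of the Iberian breed and about 12 months old when sampled. Their compound feed was restricted, to a lower share of free energy intake in the olive diets than in the control diet. The control (C) group received a conventional compound feed. In the dry olive pulp (DOP) group, olive pulp made up 45% of the compound feed. The wet crude olive cake (WCOC) group received a compound feed and, with free access, a silage of which 75% was crude olive cake, mixed with straw. Each diet was fed in 1 pen, so pen and diet cannot be told apart, nor can the level of feed restriction from the olive diets. The libraries were made from pigs picked for the amount and quality of their RNA.

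Insulin acts on fat cells through a receptor tyrosine kinase, INSR, which phosphorylates the docking proteins IRS1 and IRS2. These recruit phosphatidylinositol 3-kinase, of which PIK3R1 is a regulatory subunit, and the lipid signal activates the kinase AKT2. In adipocytes AKT2 drives the glucose transporter GLUT4, the product of SLC2A4, to the cell surface, keeps the transcription factor FOXO1 out of the nucleus and activates PDE3B, the phosphodiesterase through which insulin restrains lipolysis. GRB10 and GRB14 are related adaptor proteins that bind the active receptor and inhibit it. GRB10 is an imprinted gene in human and mouse.

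The libraries held between 22373715 and 34745218 counts on genes. Adipocyte markers were high in every library, with a summed level of 17081 to 26229 CPM (gene counts relative to library size, here scaled by TMM), which fits the labelled tissue. Skeletal muscle markers set some libraries apart: their summed level (10 of 15 markers matched, TNNI2 at 0 in all 15 libraries) was 51.9 to 4609 CPM in C, 20.4 to 854 CPM in WCOC and 39.4 to 57165 CPM in DOP. DOP replicates 2, 4 and 5, with 12213, 7526 and 57165 CPM, were above every control. Summed macrophage markers (12 of 12 matched) were 287 to 842 CPM in C, 197 to 495 CPM in DOP and 141 to 381 CPM in WCOC. The run identifiers placed C replicates 1 to 4 and all WCOC libraries on 1 flow cell, and C replicate 5 and all DOP libraries on another. In bulk tissue, fewer cells of a type and less RNA per cell cannot be told apart.

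In edgeR, 1 member passed the limits given below in each of the 3 comparisons. GRB10, the receptor inhibitor, was higher in DOP than in C. GRB14, its relative, was higher in WCOC than in C, and SLC2A4, the glucose transporter gene, was lower in WCOC than in DOP. A gene was called a differentially expressed gene (DEG) when its adjusted p was under 0.05 and its log2FC was at least 0.58 in size, in the quasi-likelihood test of edgeR, with p adjusted by Benjamini-Hochberg over the whole table. By this rule 1 of 10 members was a DEG in each comparison, against 0.764% of all tested genes in DOP vs. C, 6.25% in WCOC vs. C and 7.76% in WCOC vs. DOP. With 10 members, 1 call is close to the share of all genes in both comparisons with WCOC. Which member was called there depended on the test, as DESeq2 called both GRB14 and SLC2A4 in WCOC vs. C and in WCOC vs. DOP. The 3 comparisons share libraries with each other and are not independent.

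**Figure D1:**
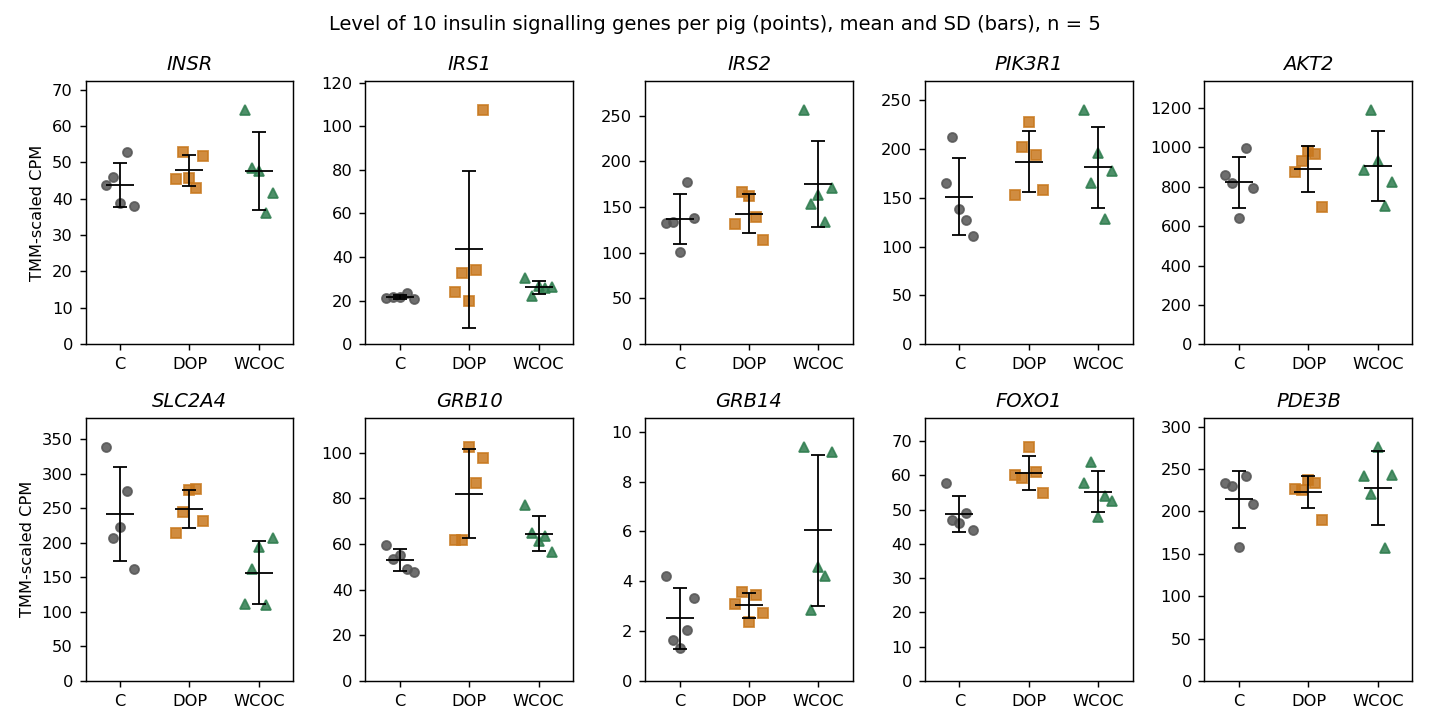
Each panel plots 1 gene, with the level in TMM-scaled CPM on the y axis (starting at 0) and the diet on the x axis. Points are the 5 pigs of a diet, and black bars are the mean and SD. The 5 GRB10 values in DOP (61.8 to 102 CPM) lie above the 5 in C, the SLC2A4 values in WCOC (110 to 207 CPM) lie below those in DOP, and 1 DOP pig has 107 CPM of IRS1, far above all other pigs.

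GRB10 encodes the adaptor that binds the insulin receptor and dampens its signal. It spans chr9:136580363-136742552 on the minus strand of Sscrofa11.1, with 25 blocks of exon that add up to 12758 bp. In C, replicates 1 to 5 had 59.4, 53.4, 55.3, 48.9 and 47.5 CPM. In DOP the values were 61.8, 61.9, 102, 86.6 and 97.6 CPM, and in WCOC they were 77.0, 64.8, 61.1, 63.4 and 56.4 CPM. Every DOP library was above every C library, while DOP replicates 1 and 2 lay within the range of WCOC. The means were 52.9 ± 4.83 CPM in C, 82.1 ± 19.3 CPM in DOP and 64.5 ± 7.66 CPM in WCOC (SD, n = 5).

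GRB10 rose in DOP vs. C with a log2FC of 0.63 (SE 0.14, edgeR adjusted p = 0.0484). It was the one member whose libraries did not overlap between DOP and C, as was the case for 3.47% of all tested genes. In WCOC vs. C its log2FC was 0.29 (SE 0.14, edgeR adjusted p = 0.208), and in WCOC vs. DOP it was -0.35 (SE 0.14, edgeR adjusted p = 0.120). Neither passed the test. Muscle markers in DOP replicates 1 to 5 were 39.4, 12213, 275, 7526 and 57165 CPM, beside the GRB10 levels above. The lowest GRB10 value in DOP lay with the fewest muscle markers, the highest with 275 CPM, and the next 2 with 57165 and 7526 CPM. DOP replicate 2, with 12213 CPM of muscle markers, had 61.9 CPM of GRB10, close to the lowest DOP value of 61.8 CPM. Over the 15 libraries GRB10 had an r of 0.43 with the summed muscle markers (log2 CPM), and 0.36 after centring within diets. The part of muscle RNA in the rise was not tested beyond the fits given here. Without DOP replicates 2, 4 and 5 the log2FC was 0.64 (SE 0.17), with an edgeR adjusted p of 0.534 over the 2 remaining DOP libraries. The only control on the flow cell of the DOP libraries, C replicate 5, had the lowest GRB10 level of all 15 libraries.

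The adjusted p of GRB10 in DOP vs. C lay close to the limit. The call held when C replicate 1 or DOP replicate 1 was left out and was lost without any one of the other 8 libraries (edgeR adjusted p 0.0656 to 0.122, log2FC 0.53 to 0.71). DESeq2 also called GRB10 (adjusted p = 0.00229), whereas edgeR did not with muscle markers (log2FC 0.58, adjusted p = 0.0916), macrophage markers (log2FC 0.47, adjusted p = 0.352) or flow cell (log2FC 0.79, adjusted p = 0.244) as a covariate.

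GRB14 encodes the second adaptor of this family in the set and spans chr15:71119928-71247426 on the minus strand. Its level was low. In C its values were 4.22, 1.62, 1.34, 2.02 and 3.34 CPM, from 38 to 101 counts per library. In DOP they were 3.09, 3.58, 2.38, 3.45 and 2.72 CPM, and in WCOC they were 9.39, 2.84, 4.57, 4.19 and 9.20 CPM. WCOC replicates 1 and 5 stood above all other libraries, and the other 3 WCOC pigs had 2.84 to 4.57 CPM, around the highest control value of 4.22 CPM. The means were 2.51 ± 1.23 CPM in C, 3.04 ± 0.503 CPM in DOP and 6.04 ± 3.04 CPM in WCOC (SD, n = 5).

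GRB14 rose in WCOC vs. C, with a log2FC of 1.27 (SE 0.36, edgeR adjusted p = 0.0377), although the 2 groups overlapped. No member was free of overlap in this comparison, against 7.62% of all tested genes. In WCOC vs. DOP the log2FC was 0.99 (SE 0.36, edgeR adjusted p = 0.0830), and in DOP vs. C it was 0.28 (SE 0.36, edgeR adjusted p = 0.741). The WCOC vs. C call was lost without WCOC replicate 1 (log2FC 1.06), WCOC replicate 5 (log2FC 1.07) or C replicate 2, 3 or 4 (log2FC 1.10 to 1.20), with edgeR adjusted p values of 0.0741 to 0.109 over these 5 fits. It was also lost on the shared flow cell alone (log2FC 1.40, adjusted p = 0.0968), with the 2 diets fitted alone (adjusted p = 0.0767), and with macrophage markers as a covariate (log2FC 1.21, adjusted p = 0.413). DESeq2 called GRB14 (adjusted p = 0.00610). The edgeR call held with no filter (adjusted p = 0.0472), and with flow cell (adjusted p = 0.0487) or muscle markers (adjusted p = 0.0465) as a covariate.

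Because both inhibitory adaptors were DEGs in 1 comparison each, the 250 bases upstream of their RefSeq gene starts are shown, read 5' to 3' on the strand of the gene in Sscrofa11.1. The GRB10 window is chr9:136742553-136742802 (minus strand), and the GRB14 window is chr15:71247427-71247676 (minus strand). The window of INSR, their binding partner, at chr2:71796959-71797208 (plus strand), is given with them. Capitals mark the only match among the 10 members' windows, on the reverse strand, to GTAAACA, the core motif of FOXO factors.
GRB10: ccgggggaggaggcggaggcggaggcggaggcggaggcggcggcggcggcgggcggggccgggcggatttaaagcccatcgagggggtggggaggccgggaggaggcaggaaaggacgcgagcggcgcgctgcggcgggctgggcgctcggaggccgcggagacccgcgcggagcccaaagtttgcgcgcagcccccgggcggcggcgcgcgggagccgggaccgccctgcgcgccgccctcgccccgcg
GRB14: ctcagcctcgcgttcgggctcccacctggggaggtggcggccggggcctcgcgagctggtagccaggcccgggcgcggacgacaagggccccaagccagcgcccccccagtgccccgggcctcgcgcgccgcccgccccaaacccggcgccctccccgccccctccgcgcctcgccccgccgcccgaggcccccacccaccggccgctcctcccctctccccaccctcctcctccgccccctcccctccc
INSR: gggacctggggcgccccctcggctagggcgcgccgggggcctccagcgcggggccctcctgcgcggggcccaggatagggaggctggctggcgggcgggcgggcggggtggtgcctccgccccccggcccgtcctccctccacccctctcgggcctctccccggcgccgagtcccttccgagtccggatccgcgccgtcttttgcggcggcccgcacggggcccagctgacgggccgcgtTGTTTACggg
The GRB10 window was 82.4% G or C and held 45 CpG dinucleotides, against medians of 57.2% and 11 over the 20664 windows of annotated protein-coding genes. The GRB14 window was 82.0% G or C with 30 CpG dinucleotides. The windows of the other members held 5 (AKT2) to 36 (PDE3B), and 29% of all windows held at least 20. GTAAACA, searched on both strands, was found in 1 of 10 member windows and in 2.31% of all windows. CAAAACA, the core of the insulin response sequence, was in none of the 10 and in 4.30% of all windows. The match in INSR starts 10 bases upstream of the gene start. A match describes these letters only, and no binding was measured.

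SLC2A4 encodes GLUT4, the insulin-responsive glucose transporter of adipocytes and muscle fibres, and spans chr12:52628746-52634965 on the plus strand. Its values were 339, 207, 223, 275 and 162 CPM in C. They were 214, 245, 276, 278 and 232 CPM in DOP and 112, 162, 194, 109.6 and 207 CPM in WCOC. C and DOP overlapped widely, and the highest WCOC library lay just under the lowest DOP library. The means were 241 ± 68.0 CPM in C, 249 ± 27.8 CPM in DOP and 157 ± 45.3 CPM in WCOC (SD, n = 5).

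SLC2A4 fell in WCOC vs. DOP, with a log2FC of -0.67 (SE 0.21, edgeR adjusted p = 0.0483). It was the one member without overlap in this comparison, as were 8.90% of all tested genes. Its log2FC in WCOC vs. C was of like size, -0.62 (SE 0.21), but missed the limit (edgeR adjusted p = 0.0718), and in DOP vs. C it was 0.05 (SE 0.21, edgeR adjusted p = 0.941). DESeq2 called SLC2A4 in both comparisons with WCOC (adjusted p = 0.0125 against DOP and 0.0240 against C). On the flow cell that C and WCOC shared, the log2FC of WCOC vs. C was -0.74 (edgeR adjusted p = 0.0819).

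The WCOC vs. DOP call of SLC2A4 held without DOP replicate 1 or WCOC replicate 5 and was lost without any one of the other 8 libraries (log2FC -0.76 to -0.55, edgeR adjusted p 0.0516 to 0.118). DOP and WCOC libraries were never on the same flow cell, so diet and flow cell can be separated here only through the controls. Only 1 control, C replicate 5, was on the flow cell of the DOP libraries. With flow cell as a covariate, a fit that rests on this control, the log2FC was -1.36 (edgeR adjusted p = 0.264). Muscle markers differed between these diets, and the log2FC was -0.66 with them as a covariate (edgeR adjusted p = 0.152) and -0.65 without DOP replicates 2, 4 and 5 (edgeR adjusted p = 0.382).

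**Figure D2:**
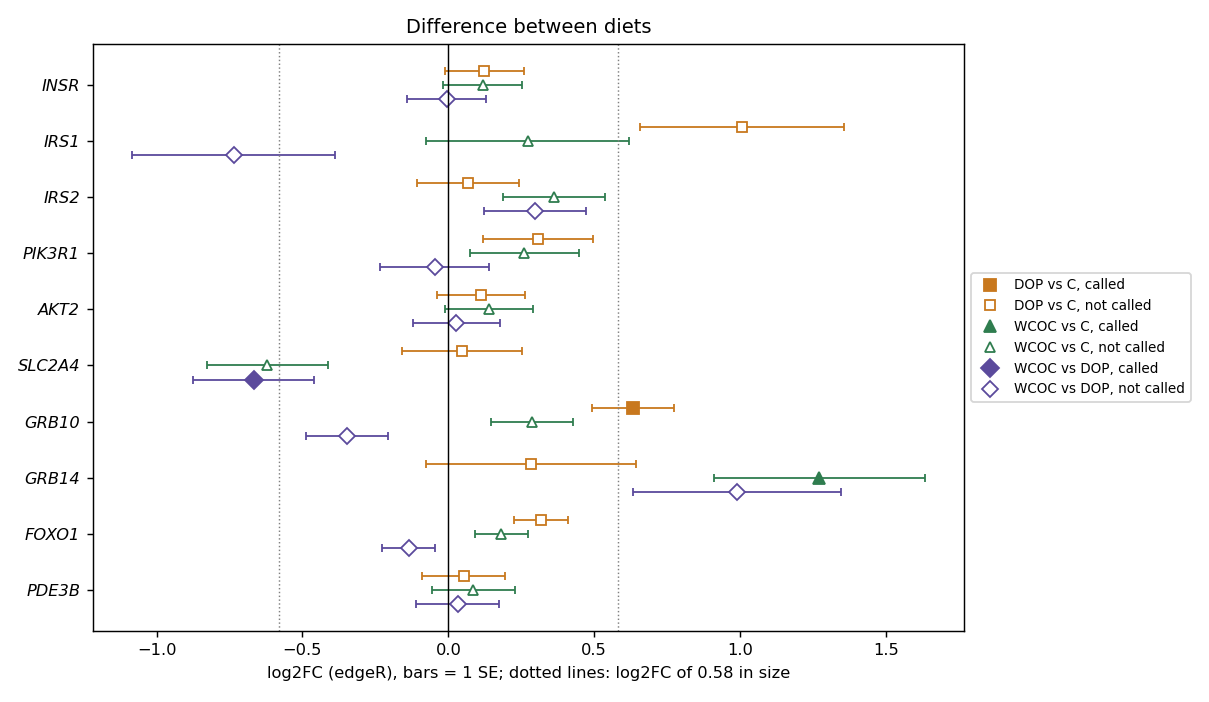
The log2FC of each gene (y axis) from edgeR is plotted on the x axis for the 3 comparisons, with bars of 1 SE. Filled symbols are DEGs: GRB10 in DOP vs. C (0.63), GRB14 in WCOC vs. C (1.27) and SLC2A4 in WCOC vs. DOP (-0.67). Dotted lines mark a log2FC of 0.58 in size.

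At the top of the pathway, no difference in the receptor passed the test. INSR, at chr2:71797209-71939923, had means of 43.9 ± 6.07 CPM in C, 47.8 ± 4.25 CPM in DOP and 47.6 ± 10.6 CPM in WCOC (SD, n = 5). Its log2FC in DOP vs. C was 0.12, with an approximate 95% interval of -0.14 to 0.39, and in WCOC vs. C it was 0.12, with an interval of -0.15 to 0.38. The counts of GRB10 relative to those of its receptor in the same library, a ratio that no scaling of libraries changes, had a log2 value of 0.28 ± 0.24 in C (SD, n = 5). It was 0.75 ± 0.40 in the DOP pigs and 0.46 ± 0.21 in the WCOC pigs. The ranges overlapped: DOP replicates 1 and 2 (0.44 and 0.23) were below the highest control (0.51).

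Of the docking proteins, IRS1 showed the largest spread within a diet. It lies at chr15:128245846-128307321 on the minus strand. In C its values were 21.03, 21.5, 21.8, 23.3 and 20.7 CPM. In DOP they were 24.05, 32.7, 19.8, 33.9 and 107 CPM, and in WCOC they were 30.2, 21.9, 26.6, 26.0 and 26.1 CPM. DOP replicate 5, the library with the most muscle marker RNA, lay far above the other libraries, and DOP replicates 2 and 4, the next in muscle markers, held the next places. DOP replicates 1 and 3, with muscle markers no higher than in the controls, had 24.05 and 19.8 CPM. Within C, IRS1 did not follow the muscle markers in this way. C replicates 1 and 3, with 2401 and 4609 CPM of muscle markers, had 21.03 and 21.8 CPM of IRS1. C replicate 2, with 51.9 CPM of muscle markers, had 21.5 CPM.

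IRS1 was not a DEG in DOP vs. C, at a log2FC of 1.01 (SE 0.35, edgeR adjusted p = 0.159). In DESeq2 its adjusted p of 0.0539 lay just above the limit. Without DOP replicate 5 the log2FC was 0.34 (edgeR adjusted p = 0.317), and the DOP mean went from 43.6 ± 36.1 (SD, n = 5) to 27.6 ± 6.83 CPM (SD, n = 4). Without DOP replicates 2, 4 and 5 the log2FC was 0.02 (SE 0.12). With muscle markers as a covariate it was 0.54 (edgeR adjusted p = 0.453). The part of muscle RNA in the IRS1 difference was not tested beyond these fits. In WCOC vs. C the IRS1 log2FC was 0.27 (SE 0.35, edgeR adjusted p = 0.659). That fit drew its SE from the libraries of all diets, DOP replicate 5 included. With C and WCOC fitted alone, the log2FC was also 0.27, with a smaller SE of 0.09 (edgeR adjusted p = 0.0976). IRS1 was not a DEG in either fit.

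**Figure D3:**
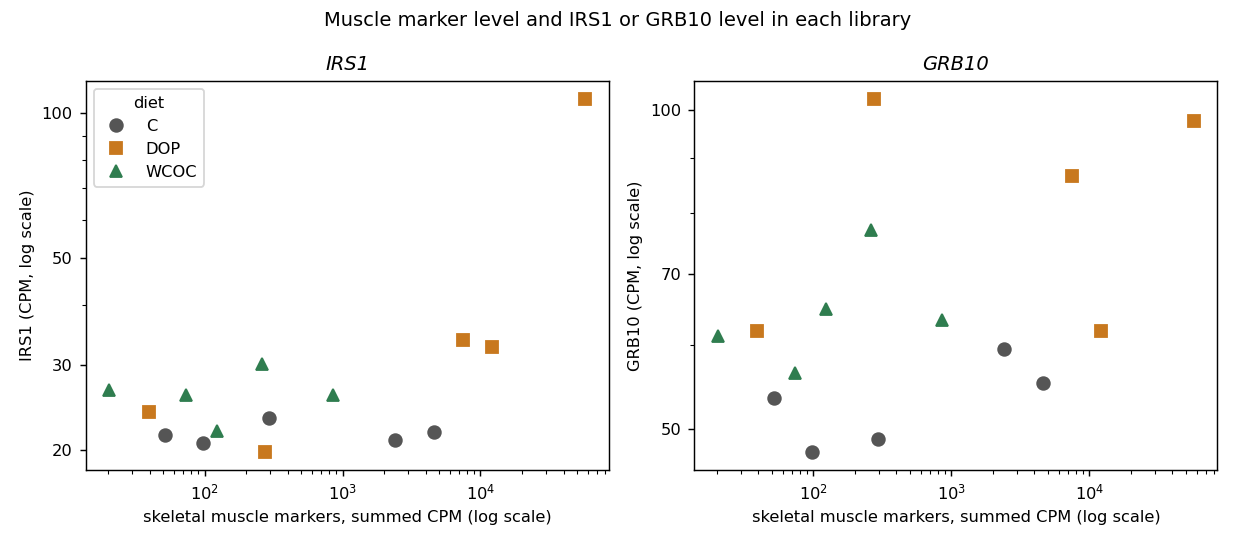
Each point is 1 library, with the summed CPM of skeletal muscle markers on the x axis and the CPM of IRS1 (left) or GRB10 (right) on the y axis, all on log scales. The 3 DOP libraries with the most muscle marker RNA hold the 3 highest IRS1 values, with an r of 0.63 over the 15 libraries. For GRB10 the r is 0.43, the highest value belongs to a DOP library with 275 CPM of muscle markers, and the next 2 belong to DOP libraries with 57165 and 7526 CPM. DOP replicate 2, with 12213 CPM of muscle markers, has 61.9 CPM of GRB10, close to the lowest DOP value of 61.8 CPM.

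IRS2, at chr11:76626158-76654639, was the more abundant docking protein gene per kilobase of exon, with 23.4 CPM per kb over all libraries against 4.79 for IRS1. Its means were 136 ± 27.4 CPM in C, 143 ± 21.7 CPM in DOP and 175 ± 47.1 CPM in WCOC (SD, n = 5). The WCOC vs. C log2FC of 0.36 (SE 0.18) did not pass the test (edgeR adjusted p = 0.202), and WCOC replicate 1 alone, at 256 CPM, lay above the highest control of 178 CPM. The log2 ratio of IRS1 to IRS2 counts was -2.63 ± 0.26 in C and -2.72 ± 0.26 in WCOC, and in DOP it was -1.99 ± 1.12, with -0.09 in replicate 5 (SD, n = 5).

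No difference between diets was detected at the kinase steps. PIK3R1 (chr16:46434757-46523626) had means of 151 ± 39.6 CPM in C, 187 ± 31.5 CPM in DOP and 181 ± 41.1 CPM in WCOC (SD, n = 5). Its log2FC was 0.31 in DOP vs. C (95% interval -0.06 to 0.67) and 0.26 in WCOC vs. C (95% interval -0.11 to 0.63). AKT2 (chr6:48555785-48620472), the AKT isoform most closely tied to glucose uptake, had means of 824 ± 129 CPM in C, 889.8 ± 115 CPM in DOP and 907 ± 179 CPM in WCOC (SD, n = 5). Its log2FC was 0.11 in DOP vs. C (95% interval -0.18 to 0.41) and 0.14 in WCOC vs. C (95% interval -0.15 to 0.43). Neither gene was a DEG in any comparison, and the intervals leave room for changes of up to 0.67 on the log2 scale in PIK3R1 and 0.43 in AKT2.

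FOXO1, the transcription factor that AKT inactivates, lies at chr11:15317222-15410059 on the minus strand. Its values were 57.7, 46.9, 46.0, 49.0 and 44.0 CPM in C. In DOP they were 59.98, 59.2, 68.3, 61.0 and 55.0 CPM, and in WCOC they were 57.6, 64.0, 47.9, 54.0 and 52.5 CPM. A single control, replicate 1, reached into the DOP range. The log2FC in DOP vs. C was 0.32 (SE 0.09), below the 0.58 limit and not significant in edgeR (adjusted p = 0.108), whereas DESeq2 gave an adjusted p of 0.0343 for a log2FC of 0.31. In WCOC vs. C it was 0.18 (SE 0.09, edgeR adjusted p = 0.220).

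PDE3B, the phosphodiesterase of the antilipolytic branch (chr2:44416934-44614075), had means of 215 ± 33.6 CPM in C, 223 ± 18.97 CPM in DOP and 228 ± 44.1 CPM in WCOC (SD, n = 5). Its log2FC was 0.05 in DOP vs. C (95% interval -0.23 to 0.33) and 0.09 in WCOC vs. C (95% interval -0.19 to 0.36). The WCOC value was the smallest difference from C of the 10 members in that comparison.

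Across the 10 members, the log2FC was above 0 for 10 in DOP vs. C and for 9 in WCOC vs. C, with SLC2A4 as the exception. The median log2FC of the members was 0.20 in DOP vs. C and 0.22 in WCOC vs. C, and that of all tested genes was 0.01 and 0.00, with 52.2% and 50.6% of them above 0. In WCOC vs. DOP the median was -0.03 and 4 of 10 members were above 0 (50.1% of all tested genes). An unadjusted p under 0.05 was reached by IRS1, GRB10 and FOXO1 in DOP vs. C (17.6% of all tested genes), by SLC2A4 and GRB14 in WCOC vs. C (26.4%), and by SLC2A4, GRB10 and GRB14 in WCOC vs. DOP (28.1%). Summed adipocyte markers had means of 19439 CPM in C, 22050 CPM in DOP and 22680 CPM in WCOC. Of the 10 adipocyte markers, 8 had a log2FC above 0 in DOP vs. C (median 0.13) and 7 in WCOC vs. C (median 0.29). The part of adipocyte RNA in the log2FC of the members was not tested.

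Per kilobase of exon, AKT2 (104 CPM per kb) and SLC2A4 (88.3) were the most abundant members over the 15 libraries, followed by PDE3B (40.5), IRS2 (23.4), PIK3R1 (10.2), FOXO1 (10.2), GRB10 (5.21), INSR (4.93), IRS1 (4.79) and GRB14 (1.54). The ranges over libraries of neighbours in this order overlapped, except between IRS2 and PIK3R1 and between FOXO1 and GRB10. GRB10 was above INSR in 6 of 15 libraries, and INSR was above IRS1 in 12 of 15, with DOP replicate 5 reaching 16.9 CPM per kb of IRS1. GRB14 was below IRS1 in all 15.

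Levels of the members varied together only in part over the 15 libraries. Of the 45 pairs of members, 40 had a Pearson correlation of log2 CPM above 0, with a median r of 0.25. The pairs AKT2 and PDE3B (r = 0.72), GRB10 and FOXO1 (r = 0.70) and INSR and IRS2 (r = 0.66) were the highest, and SLC2A4 and GRB14 (r = -0.39) the lowest. After centring within diets, GRB10 and FOXO1 had an r of 0.36, and SLC2A4 and GRB14 had 0.10. The centred r was 0.71 for AKT2 and PDE3B and 0.71 for INSR and IRS2. The points share diets, flow cells and cell composition, and no test was made. INSR, IRS2, PIK3R1, AKT2, FOXO1 and PDE3B each had an r of 0.54 to 0.73 with the summed adipocyte markers, GRB10 and GRB14 had 0.47, SLC2A4 had 0.07 and IRS1 had -0.01. With the summed macrophage markers the r was -0.48 to -0.04 for 9 members and 0.36 for SLC2A4. After centring within diets, the r with macrophage markers ran from -0.49 (GRB10) to 0.16 (AKT2), with -0.05 for SLC2A4. The centred r with adipocyte markers was 0.43 for SLC2A4, 0.33 for GRB10, 0.29 for GRB14 and -0.25 for IRS1. It was 0.42 to 0.72 for the remaining members.

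The genes whose log2 CPM followed GRB10 most closely over the 15 libraries, among genes with a symbol and a mean of at least 1 CPM, were BTG4 (r = 0.88), SENP8 (r = 0.87), THRA (r = 0.84), ABHD4 (r = 0.84) and THRAP3 (r = 0.84). THRA, which encodes a thyroid hormone receptor, had 81.5 ± 6.75 CPM in C, 114 ± 12.6 CPM in DOP and 89.4 ± 3.20 CPM in WCOC (SD, n = 5). Centred within diets, the r of these 5 genes with GRB10 was 0.62 to 0.89.

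The other genes of the pathway were taken from 6 lists with 89 symbols, of which 86 were matched and 80 tested. In DOP vs. C none of the 80 was a DEG in edgeR, while DESeq2 called 3. At an unadjusted p under 0.05 in edgeR, 3 of the 80 were higher and 10 lower, against 17.6% of all tested genes in either direction. In WCOC vs. C 5 were DEGs, all lower in WCOC (6.25%, the same share as of all tested genes). In WCOC vs. DOP 1 was higher (1.25%, against 7.76%). The median log2FC of the 80 genes was 0.02, -0.01 and -0.01 in these comparisons, close to that of all genes.

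Among 10 receptor, docking and ligand-family genes, 2 adaptors were DEGs, lower in WCOC than in C (20%, against 6.25% of all tested genes). GAB2, a docking protein for several tyrosine kinases, had 78.6 CPM in C and 52.0 CPM in WCOC (log2FC -0.60, edgeR adjusted p = 0.0311), and 57.3 CPM in DOP (log2FC to C -0.46, edgeR adjusted p = 0.164). DOK2, a docking protein best known from blood cells, had 8.59 ± 5.73 and 2.98 ± 1.04 CPM (SD, n = 5; log2FC -1.53, edgeR adjusted p = 0.0300). Its DOP level was 2.78 ± 0.86 CPM (SD, n = 5), with a log2FC to C of -1.63 that missed the limit (edgeR adjusted p = 0.0695). None of the 10 was a DEG in the other comparisons.

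Among 12 inhibitors of the pathway, ENPP1 and TRIB3 were DEGs that fell in WCOC vs. C (16.7%, against 6.25% of all tested genes). ENPP1, a membrane enzyme that can bind and inhibit the insulin receptor, had 108 ± 61.8 CPM in C (SD, n = 5; 54.9 to 199.8 CPM) and 44.6 ± 7.36 CPM in WCOC (log2FC -1.28, edgeR adjusted p = 0.0145). In DOP it had 54.8 CPM (46.7 to 63.1 CPM), with a log2FC to C of -0.98 that did not pass the test (edgeR adjusted p = 0.110). TRIB3, a pseudokinase that binds AKT, had 46.7 and 22.3 CPM (log2FC -1.07, edgeR adjusted p = 0.0188), and 31.3 CPM in DOP (log2FC to C -0.58, edgeR adjusted p = 0.252). Of GAB2, DOK2, ENPP1 and TRIB3, none was a DEG between WCOC and DOP. PTPRF, a receptor tyrosine phosphatase, was higher in WCOC than in DOP, at 97.0 against 49.3 CPM (log2FC 0.98, edgeR adjusted p = 0.0117). It was the only DEG of the 12 in that comparison (8.33%, against 7.76% of all tested genes).

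Of 18 genes of GLUT4 vesicles and glucose uptake, HK2, the hexokinase that phosphorylates glucose after its entry, fell in WCOC vs. C from 357 to 231 CPM (log2FC -0.63, edgeR adjusted p = 0.0478), and was 261 CPM in DOP (log2FC to C -0.45, edgeR adjusted p = 0.238). It was the only DEG of the 18 in WCOC vs. C (5.56%, against 6.25% of all tested genes). None of the 19 genes of the PI3K, AKT and mTOR group was a DEG in edgeR (0 at an unadjusted p under 0.05 in DOP vs. C, 2 in WCOC vs. C and 4 in WCOC vs. DOP, against 17.6%, 26.4% and 28.1% of all tested genes), and their log2FC lay between -0.52 and 0.32 over the 2 comparisons with C. None of 10 genes of the MAPK arm was a DEG in edgeR (at an unadjusted p under 0.05, 0 in DOP vs. C, 1 in WCOC vs. C and 1 in WCOC vs. DOP, against the same shares).

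None of 11 FOXO, GSK3 and other effector genes was a DEG in edgeR (at an unadjusted p under 0.05, 4 in DOP vs. C, 2 in WCOC vs. C and 4 in WCOC vs. DOP, against 17.6%, 26.4% and 28.1% of all tested genes). PDK4, a FOXO target that inhibits the pyruvate dehydrogenase complex and was picked after its values were seen, had the largest difference of all 80 genes, from 22.6 CPM in C to 88.4 CPM in DOP (log2FC 1.97, edgeR adjusted p = 0.0583).

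All 12 macrophage markers had a log2FC below 0 in WCOC vs. C, and 5 of them were DEGs (41.7%, against 6.25% of all tested genes). With these markers as a covariate, 0 of the 80 pathway genes and 60 of all tested genes were DEGs in WCOC vs. C, and the part of macrophage RNA in the fall of GAB2, DOK2, ENPP1, TRIB3 and HK2 was not tested gene by gene.

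**Figure D4:**
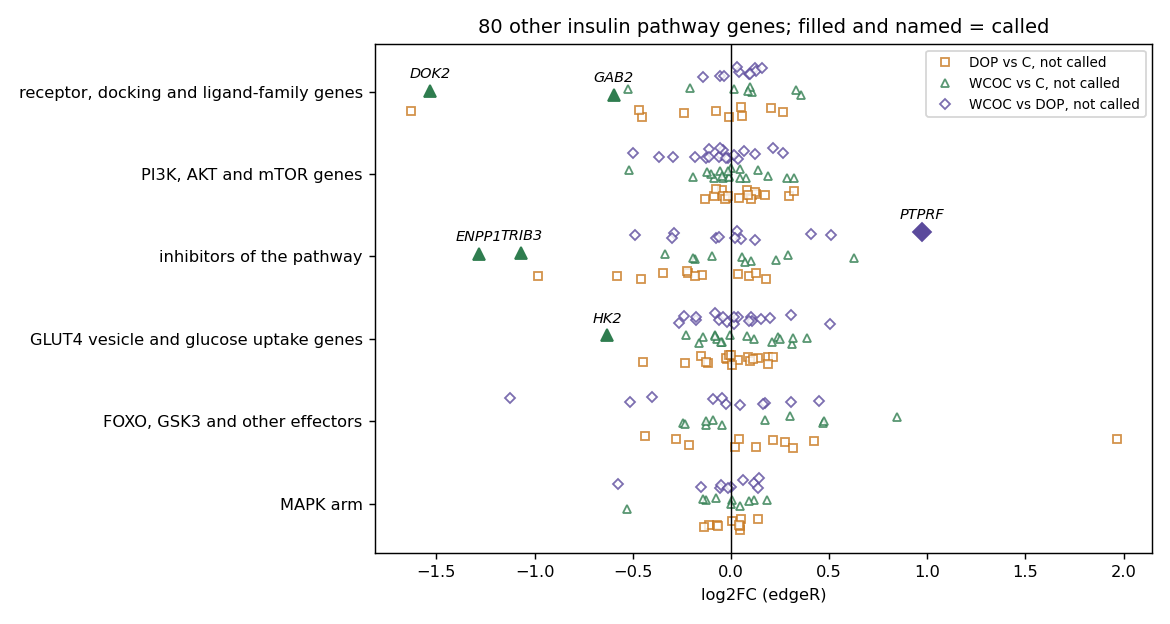
The log2FC from edgeR (x axis) is plotted for 80 other insulin pathway genes, grouped by role (y axis), 1 symbol per gene and comparison. Filled, named symbols are DEGs: GAB2, DOK2, ENPP1, TRIB3 and HK2 in WCOC vs. C, and PTPRF in WCOC vs. DOP. Most genes lie near 0, and the medians of the 3 comparisons are 0.02, -0.01 and -0.01.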

How the data were processed

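RNA of backfat from 15 Iberian pigs (5 per diet) was sequenced in paired ends, 1 library per pig. The deposited values are raw counts of read pairs per Ensembl gene, which the authors made from untrimmed reads aligned with HISAT2 to Sscrofa11.1 and counted with HTSeq; they are neither normalized nor pooled. Neither the HTSeq strand option nor the release of the annotation is given in the sources used here. No RefSeq gene overlaps a member. Summary lines for pairs not counted (23.4% to 32.8% of a library) were left out. Median counts on genes were 27522449 in C, 29104570 in DOP and 27098819 in WCOC.

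CPM and log2 values were computed here from the deposited counts. The test was that of edgeR 4.0.16 in R 4.3.3: filterByExpr by diet (14918 of 30477 genes kept), TMM scaling (trimmed mean of M-values), 1 mean per diet over all 15 libraries, and a two-sided quasi-likelihood F test, with Benjamini-Hochberg adjustment over the 14918 genes. DEGs passed an adjusted p of 0.05 together with a log2FC of 0.58 in size. Approximate 95% intervals are the log2FC with 1.96 SE on each side. Log2 CPM used a prior count of 1. The workflow was tested on simulated data. Alternatives were DESeq2 1.42.0, its size factors, no filter, no limit on the log2FC, the diets compared alone, a replicate block, flow cell (from run identifiers) as a covariate or flow cell A alone, muscle or macrophage markers as a covariate, and each library left out in turn. A fit without the 3 DOP libraries richest in muscle markers was added after seeing the data.

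Groups and replicate numbers were taken from the sample titles. The labels do not say whether libraries are separate pigs, which the methods of the study do. The members, gene lists and tests were chosen with earlier results of these data known. A few genes of the pathway are not reported here. The genes named with values by rule are all members, the listed pathway genes called in any comparison and genes among the 5 with the highest correlation with GRB10, and PDK4 was added after its values were seen. Symbols were matched through a gene name table, by which AKT1, SOCS2 and SLC2A1 of the pathway lists were not matched and are not analysed here, and positions, exon lengths and upstream windows come from the RefSeq annotation of Sscrofa11.1. Figures were made with Python 3.11.15 and matplotlib 3.10.9.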

Additional observations from a re-analysis of the deposited data

Results flagged for a closer look

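In 2 of the 30 sets of 5 libraries (10 genes in 3 diets), 1 library stood far from the other 4 by Dixon's test at its 95% critical value, a rate at which chance flags about 1 in 20 sets. IRS1 was 107.3 CPM in DOP replicate 5, against 19.8 to 33.9 CPM in the other DOP libraries (gap over range 0.838). PDE3B was 189.8 CPM in the same library, the lowest of its diet, against 225 to 237 CPM in the others (gap over range 0.743). This library also had the highest summed level of skeletal muscle markers, 57165 CPM, and the part of muscle RNA in either value was not tested.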

How the results depend on the processing

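Over the alternatives, the log2FC of GRB10 in DOP vs. C, of GRB14 in WCOC vs. C and of SLC2A4 in WCOC vs. DOP kept its direction in 20 of 20 fits each, the reported one included, but the calls often did not hold. Counts are given in the order members, pathway genes and all genes. In DOP vs. C (reported counts 1, 0 and 114), DESeq2 called 3 pathway genes and 496 genes. Members fell to 0 with no filter, and to 0 with 0 of all genes under the replicate block in edgeR (1950 genes at an unadjusted p under 0.05). Flow cell as a covariate gave 0 members and 2 pathway genes, muscle markers 0 members and 47 genes, macrophage markers 0 and 4, the 2 diets alone 0 and 2, and leaving out the 3 DOP libraries rich in muscle markers (chosen after seeing the data) 0 and 0 (1059 genes at an unadjusted p under 0.05). In WCOC vs. C (reported counts 1, 5 and 933), DESeq2 and the flow cell covariate called 2 members each, adding SLC2A4. The replicate block left 0 pathway genes and 473 genes, macrophage markers 0 members, 0 pathway genes and 60 genes, the 2 diets alone 0 members and 3 pathway genes, flow cell A alone 0, 2 and 486, and no limit on the log2FC 8 pathway genes and 1493 genes. In WCOC vs. DOP (reported counts 1, 1 and 1158), DESeq2 called 2 members, adding GRB14. Members were 0 with no filter or macrophage markers. The replicate block gave 0, 1 and 561, flow cell 0, 0 and 1, muscle markers 0, 1 and 451, leaving out the 3 DOP libraries 0, 0 and 80, and no limit on the log2FC 4 pathway genes and 1842 genes.

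Leaving out 1 library at a time gave 0 to 1 members, 0 to 2 pathway genes and 0 to 200 genes in DOP vs. C, 0 to 2, 1 to 6 and 468 to 1163 in WCOC vs. C, and 0 to 1, 1 to 2 and 639 to 1291 in WCOC vs. DOP. The replicate numbers did not pair the pigs: 3 of 15 same-numbered pairs had a correlation of deviations above 0.1 (range -0.495 to 0.345), and 1 of 15 libraries was closest to its own number. Under the block the adjusted p was 0.163 for GRB10 in DOP vs. C, 0.0370 for GRB14 in WCOC vs. C and 0.124 for SLC2A4 in WCOC vs. DOP.

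The log2FC that changed sign were of members not called, most of them near 0. In DOP vs. C these were GRB14 with flow cell (-0.14), IRS2 and SLC2A4 with macrophage markers (-0.0411 and -0.00394), and, with 1 library left out, SLC2A4 (lowest and highest -0.0682 and 0.19), IRS2 (-0.0317 and 0.18) and PDE3B (-0.0450 and 0.10). In WCOC vs. C they were INSR (-0.0776), IRS1 (-0.34), PIK3R1 (-0.0365) and PDE3B (-0.00104) with macrophage markers, and, with 1 library left out, INSR (-0.0140 and 0.21) and PDE3B (-0.0161 and 0.20). In WCOC vs. DOP they were INSR with no filter (0.00421), AKT2 and PDE3B with flow cell (-0.0328 and -0.0168), INSR, AKT2 and PDE3B with muscle markers (0.0153, -0.0758 and -0.13), PDE3B with macrophage markers (-0.00481), and INSR, IRS1, AKT2 and PDE3B without the 3 DOP libraries (0.0515, 0.25, -0.0400 and -0.0379). With 1 library left out they were INSR (-0.14 and 0.0929), PIK3R1 (-0.17 and 0.0675), AKT2 (-0.0921 and 0.12) and PDE3B (-0.0463 and 0.15). The cause of these changes was not tested. With 5 pigs per diet in 1 pen, effects of pen, flow cell and cell composition limit what can be read from any call.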
